A study of Mus musculus with 10 samples.

Results

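Nnt, the nicotinamide nucleotide transhydrogenase, and 8 further genes of mitochondrial redox defence (Idh2, Txn2, Txnrd2, Prdx3, Sod2, Gsr, Gpx1 and Gpx4) were followed across haploid stem cells, diploid stem cells and fibroblasts of the mouse. They were chosen by name. Every probe set that the array annotation pairs with exactly 1 of these symbols was taken, which gave 22 probe sets for 9 genes, out of 18193 genes with a probe set of their own. RNA was measured on 10 Affymetrix 430 2.0 arrays, where a probe set reads a stretch near the 3' end of a transcript and gives 1 signal per array.

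Mitochondria make superoxide as a by-product of respiration, Sod2 turns it into hydrogen peroxide, and peroxidases turn the peroxide into water. The peroxidases draw their electrons from thioredoxin or glutathione, and both are recharged at the expense of NADPH. Nnt makes NADPH in the inner mitochondrial membrane by moving a hydride from NADH to NADP+, driven by the proton gradient. The inbred strain C57BL/6J is known to carry a deletion of internal exons of Nnt and to lack a working protein, whereas 129 and DBA/2 mice carry the intact gene.

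AG-haESC are haploid stem cells from androgenetic blastocysts, so that their genome is of sperm origin. The 5 AG-haESC arrays were of 5 lines of C57BL/6J genotype, 4 with an Oct4-EGFP transgene (replicates 1, 2, 4 and 5) and 1 with an Actin-EGFP transgene (replicate 3), at passages 12 to 15. The 3 E14 arrays were of diploid male stem cells of 129/Sv genotype, wild type, at passage 17. The 2 MEF arrays were of fibroblasts from male embryos of the B6D2F1 cross, wild type, at passage 2. Both MEF labels state the same embryonic day. B6D2F1 is the first generation of a cross of C57BL/6 and DBA/2, and no label states the C57BL/6 substrain of the parents. All cells had been stained with Hoechst 33342 (15 µg/ml) and sorted on DNA content, the 1n peak for AG-haESC and the 2n peak for E14 and MEF. AG-haESC were grown on feeder cells with the inhibitors CHIR99021 and PD0325901, and the labels do not state the medium of the other cells. Ploidy, parental origin, strain, passage and transgene differ between AG-haESC and E14 at the same time, so their effects cannot be told apart. All E14 arrays are of 1 line, and their spread holds no difference between diploid lines.

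Values are log2 signals. The signal is scaled to the same trimmed mean of 500 on every array, so it is relative to the other transcripts of that array, and array medians lay between 55.9 and 68.0 before log2. Of 10 pluripotency markers all lay above the array median in every AG-haESC and E14 array and 8 lay below it in every MEF array. The 10 fibroblast markers summed to 2107 to 7553 signal units in AG-haESC, 1026 to 1515 in E14 and 115677 to 140036 in MEF, and 6 of them were called higher in AG-haESC than in E14. Sums of macrophage and muscle markers also moved with the contrasts to MEF. The 8 macrophage markers summed to 1027 to 2554 in AG-haESC, 1097 to 1397 in E14 and 5846 to 6237 in MEF, and the 8 muscle markers to 525 to 1000, 886 to 1179 and 5518 to 5768 in the same groups. In the macrophage list 5 genes were called lower and 1 higher in AG-haESC than in MEF, the higher one being Laptm5 (1.94). The 4 measured endothelium markers summed to 506 to 698 in AG-haESC, 494 to 742 in E14 and 684 to 944 in MEF. The part of such cells in the differences from MEF was not tested. E14 replicate 3 stood apart, with a median deviation from the other E14 arrays of 0.48 log2 units, against 0.29 and 0.34 for E14 replicates 1 and 2. Over the probe sets of the 9 genes the same deviations were 0.24, 0.21 and 0.23. Because the samples are bulk RNA, fewer cells of a type and less RNA per cell cannot be told apart.

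Of the 22 probe sets, 21 lay above their array's median in at least 2 arrays and were tested, together with all 27505 probe sets that passed this filter. A probe set is called when limma's adjusted p lies below 0.05 and the difference is at least 1 log2 unit, which is 2-fold. In AG-haESC against E14, 1 of the 21 was called, and it was higher in AG-haESC. Of all tested probe sets 7.26% were called there, 4.37% higher and 2.89% lower. In AG-haESC against MEF 7 were called higher and 2 lower (9 in all), against 39.2% of all tested (19.2% higher and 20.0% lower). In E14 against MEF 8 were called higher and 2 lower (10 in all), against 38.9% (19.8% higher and 19.1% lower). The last 2 comparisons share the MEF arrays. As shares of the 21 these are 4.76%, 42.9% and 47.6%, not far from the background of each comparison, and most calls were contrasts with the fibroblasts.

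Nnt was lowest in AG-haESC, followed by E14 and then MEF, on both of its brighter probe sets. Probe set 1456573_x_at read 9.74, 9.62, 9.57, 8.75 and 9.73 in AG-haESC replicates 1 to 5, 10.02, 10.19 and 10.02 in E14 replicates 1 to 3, and 11.32 and 11.50 in MEF replicates 1 and 2. Every AG-haESC array lay below every E14 array, and every stem cell array lay below both MEF arrays. AG-haESC replicate 4 was the low one, and the other 4 lines lay within 9.57 and 9.74. Probe set 1416105_at read 9.64, 9.44, 9.51, 9.43 and 9.78 in AG-haESC, 9.93, 9.98 and 9.72 in E14, and 11.18 and 11.38 in MEF. Here the highest AG-haESC array lay just above the lowest E14 array, so these groups overlapped, and AG-haESC replicate 4 did not stand out.

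The Nnt difference between the stem cell groups was small and did not pass the test. AG-haESC minus E14 was -0.60 ± 0.22 (SE; 95% interval -1.07 to -0.13, limma adjusted p = 0.0955) on 1456573_x_at and -0.32 ± 0.14 (-0.62 to -0.015, adjusted p = 0.163) on 1416105_at. Without AG-haESC replicate 4 the first of these was -0.41 (adjusted p = 0.0574). With arrays weighted by their quality, which gives E14 replicate 3 and AG-haESC replicate 4 the lowest weights, both fell under the threshold of 0.05 at -0.51 (adjusted p = 0.0331) and -0.38 (adjusted p = 0.0287), still short of 2-fold.

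Against MEF the Nnt signal was lower in both stem cell groups and on both probe sets. The AG-haESC minus MEF difference was -1.93 ± 0.25 on 1456573_x_at (adjusted p = 5.06e-05) and -1.72 ± 0.16 on 1416105_at (adjusted p = 4.22e-06), which is 3.81-fold and 3.30-fold lower. For E14 minus MEF it was -1.33 ± 0.27 (adjusted p = 0.00158) and -1.40 ± 0.17 (adjusted p = 4.73e-05), 2.52-fold and 2.64-fold lower. All of these calls were kept in every alternative that was run, leaving out each array included.

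The remaining Nnt probe set, 1432608_at, gave no usable level. It read 4.21, 1.98, 4.81, 5.94 and 4.65 in AG-haESC, 3.29, 3.59 and 3.21 in E14, and 6.02 and 5.12 in MEF, and lay below the array median on all 10 arrays, so it was not tested. Which exons the Nnt probe sets read was not analysed here. The signals of the C57BL/6J lines are therefore no check of the deletion, and a transcript that lacks internal exons can still be read at its 3' end.

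**Figure D1:**
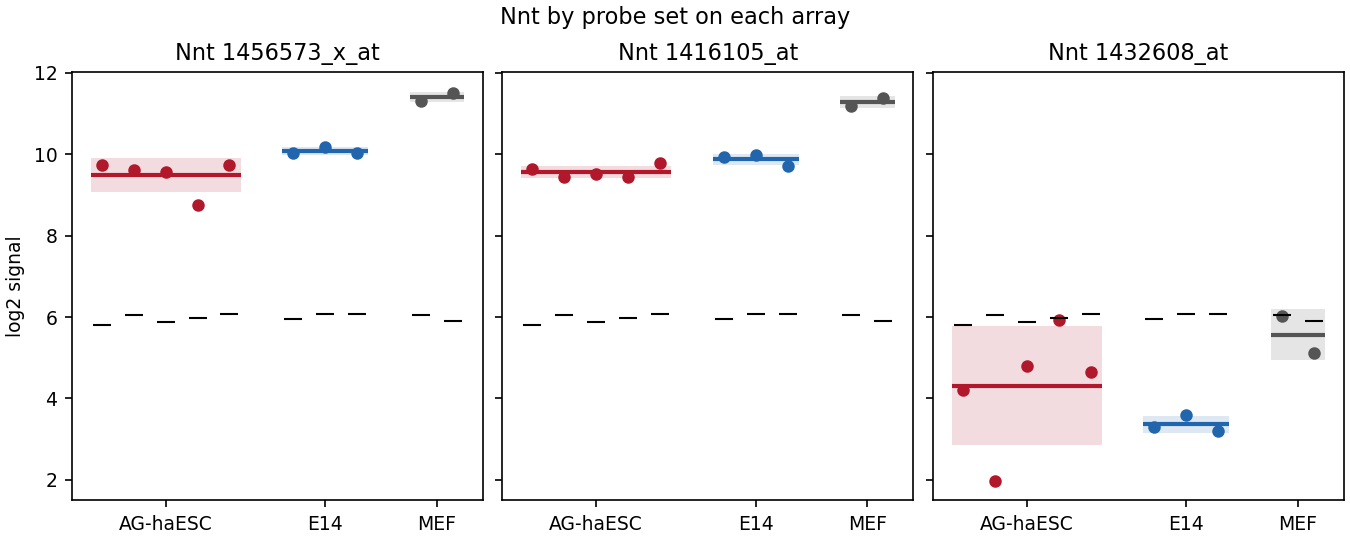
Log2 signal of the 3 Nnt probe sets (y axis) on each array, by group (x axis: AG-haESC, E14, MEF). Points are arrays in replicate order, lines and bands are the group mean and SD, and short black dashes mark each array's median. On the first 2 panels both MEF arrays lie above every stem cell array, and on the third all 10 points lie below their array's median.

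Idh2, the mitochondrial isocitrate dehydrogenase that reduces NADP+, is the other main enzyme of the set that supplies matrix NADPH, and its probe sets disagreed. Probe set 1450048_a_at read 11.90, 11.43, 11.44, 11.56 and 11.83 in AG-haESC, 11.16, 11.11 and 9.91 in E14, and 11.72 and 11.62 in MEF. All AG-haESC arrays lay above all E14 arrays, and E14 replicate 3 lay more than 1 log2 unit under the other E14 arrays. For AG-haESC minus E14 the difference was 0.90 ± 0.25 (adjusted p = 0.0388), below 2-fold and thus not called. It was 0.49 (adjusted p = 0.0425) without E14 replicate 3, and it was called at 1.12 and 1.09 (adjusted p = 0.0325 and 0.0377) without E14 replicate 1 or E14 replicate 2. Over all alternatives the adjusted p ranged from 0.0311 to 0.162, and it lay above 0.05 whenever an AG-haESC or a MEF array was left out.

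AG-haESC and MEF differed by -0.039 ± 0.29 on that probe set (95% interval -0.67 to 0.60, adjusted p = 0.922). E14 minus MEF was -0.94 ± 0.32 (adjusted p = 0.0271), under 2-fold. It was -0.53 (adjusted p = 0.0263) without E14 replicate 3, and it was called at -1.16 and -1.13 (adjusted p = 0.014 and 0.0167) without E14 replicate 1 or E14 replicate 2. The dimmer Idh2 probe set, 1453601_at, read 7.09, 7.19, 6.91, 7.80 and 7.02 in AG-haESC, 7.11, 6.94 and 6.95 in E14, and 5.90 and 5.36 in MEF. It separated the stem cells from the fibroblasts. It passed the filter on the 8 stem cell arrays alone, so it entered the test through the groups where it is higher. Both counts of calls against MEF include it. Its MEF signals lay below the array medians. With MEF put at those medians, the signal was at least 2.33-fold higher in AG-haESC than in MEF (adjusted p = 0.00106) and at least 2.02-fold higher in E14 than in MEF (adjusted p = 0.00487). The E14 call was lost without MEF replicate 2 (1.10, adjusted p = 0.0599) and with a pseudocount of 32 (0.97, adjusted p = 0.0069). Between AG-haESC and E14 it differed by 0.20 ± 0.27 (adjusted p = 0.677).

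Gsr, glutathione reductase, uses NADPH to return oxidised glutathione to its reduced form in the cytosol and in mitochondria, and it held the only call between the stem cell groups. Probe set 1421817_at read 12.07, 11.71, 11.97, 11.67 and 12.10 in AG-haESC, 10.84, 10.68 and 10.88 in E14, and 9.33 and 9.48 in MEF. The 3 groups formed separate steps with no overlap. The AG-haESC minus E14 difference was 1.11 ± 0.13 (95% interval 0.81 to 1.40, adjusted p = 0.000392), or 2.15-fold higher in AG-haESC. AG-haESC minus MEF was 2.50 ± 0.15 (adjusted p = 1.97e-07), the largest difference of the 21 tested probe sets in any comparison, and E14 minus MEF was 1.39 ± 0.17 (adjusted p = 3.96e-05).

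The other Gsr probe set, 1421816_at, showed the same order with a smaller step between the stem cells. It read 10.95, 10.94, 10.97, 11.15 and 11.50 in AG-haESC, 10.76, 10.71 and 10.75 in E14, and 9.18 and 9.26 in MEF. Here AG-haESC minus E14 was 0.36 ± 0.15 (adjusted p = 0.129), which did not pass. Its differences from MEF were 1.88 ± 0.17 for AG-haESC and 1.52 ± 0.18 for E14 (adjusted p = 2.98e-06 and 3.6e-05). When the Gsr probe sets were averaged, the AG-haESC minus E14 difference was 0.74 (adjusted p = 0.00214), and the call at 2-fold was lost.

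Sod2, the manganese superoxide dismutase of the matrix, stood higher in AG-haESC and E14 than in MEF. Probe set 1448610_a_at read 13.19, 13.27, 13.24, 13.41 and 12.90 in AG-haESC, 12.73, 12.74 and 12.81 in E14, and 11.26 and 11.35 in MEF. AG-haESC replicate 5 was the lowest of the haploid lines and still lay above all E14 arrays. AG-haESC minus MEF was 1.90 ± 0.13 (3.73-fold, adjusted p = 3.97e-07) and E14 minus MEF was 1.46 ± 0.14 (2.75-fold, adjusted p = 7.14e-06). The difference between AG-haESC and E14 was 0.44 ± 0.11, which passed the adjusted p (0.0263) but not 2-fold, and its adjusted p ranged from 0.00351 to 0.0914 over the alternatives.

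Of the other Sod2 probe sets, 1417193_at and 1454976_at gave similar steps, with AG-haESC minus MEF at 1.84 ± 0.15 and 2.00 ± 0.28 (adjusted p = 1.81e-06 and 0.000112) and E14 minus MEF at 1.44 ± 0.17 and 1.50 ± 0.31 (adjusted p = 2.88e-05 and 0.00177). Both were higher in AG-haESC than in E14 by less than 2-fold (0.41 ± 0.13 and 0.49 ± 0.25), and neither passed (adjusted p = 0.0692 and 0.223). The dimmest, 1417194_at, averaged 6.62 ± 0.32 in AG-haESC, 6.28 ± 0.26 in E14 and 6.08 ± 0.22 in MEF (SD, n = 5, 3 and 2), close to the array medians, and it was called in none of the comparisons by limma. Thus 3 of 4 Sod2 probe sets carried the contrast with the fibroblasts.

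Gpx1, a selenium-containing glutathione peroxidase of cytosol and mitochondria that reduces hydrogen peroxide, fell into the same order of groups. It read 14.17, 14.24, 14.15, 14.31 and 14.06 in AG-haESC, 13.86, 13.87 and 13.54 in E14, and 13.10 and 13.21 in MEF on its probe set 1460671_at. No groups overlapped. Gpx1 differed between AG-haESC and E14 by 0.43 ± 0.10, past the adjusted p (0.015) and under 2-fold, with adjusted p between 0.00589 and 0.0823 over the alternatives. AG-haESC minus MEF was 1.03 ± 0.11 (adjusted p = 1.37e-05), a call just past 2-fold that was lost after quantile normalization (0.83) and without MEF replicate 1 (0.97). E14 minus MEF was 0.60 ± 0.12 (adjusted p = 0.00154), under 2-fold.

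Gpx4, the peroxidase that reduces lipid hydroperoxides within membranes and guards against ferroptosis, had its highest mean in E14 on both probe sets. Probe set 1451695_a_at read 14.38, 14.14, 14.04, 14.44 and 14.28 in AG-haESC, 14.61, 14.75 and 14.31 in E14, and 13.49 and 13.41 in MEF. The stem cell groups overlapped, and both MEF arrays lay under all stem cell arrays. AG-haESC minus E14 was -0.30 ± 0.12 (adjusted p = 0.118) there and -0.33 ± 0.12 (adjusted p = 0.0898) on 1456193_x_at, and neither passed. With array weights both passed the adjusted p (0.00606 and 0.00318) and stayed under 2-fold. E14 minus MEF was 1.11 ± 0.15 and 1.21 ± 0.14 (adjusted p = 7.68e-05 and 3.37e-05), calls that were lost after quantile normalization at 0.86 and 0.99. AG-haESC minus MEF was 0.80 ± 0.13 and 0.89 ± 0.13 (adjusted p = 0.000377 and 0.00016), under 2-fold.

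**Figure D2:**
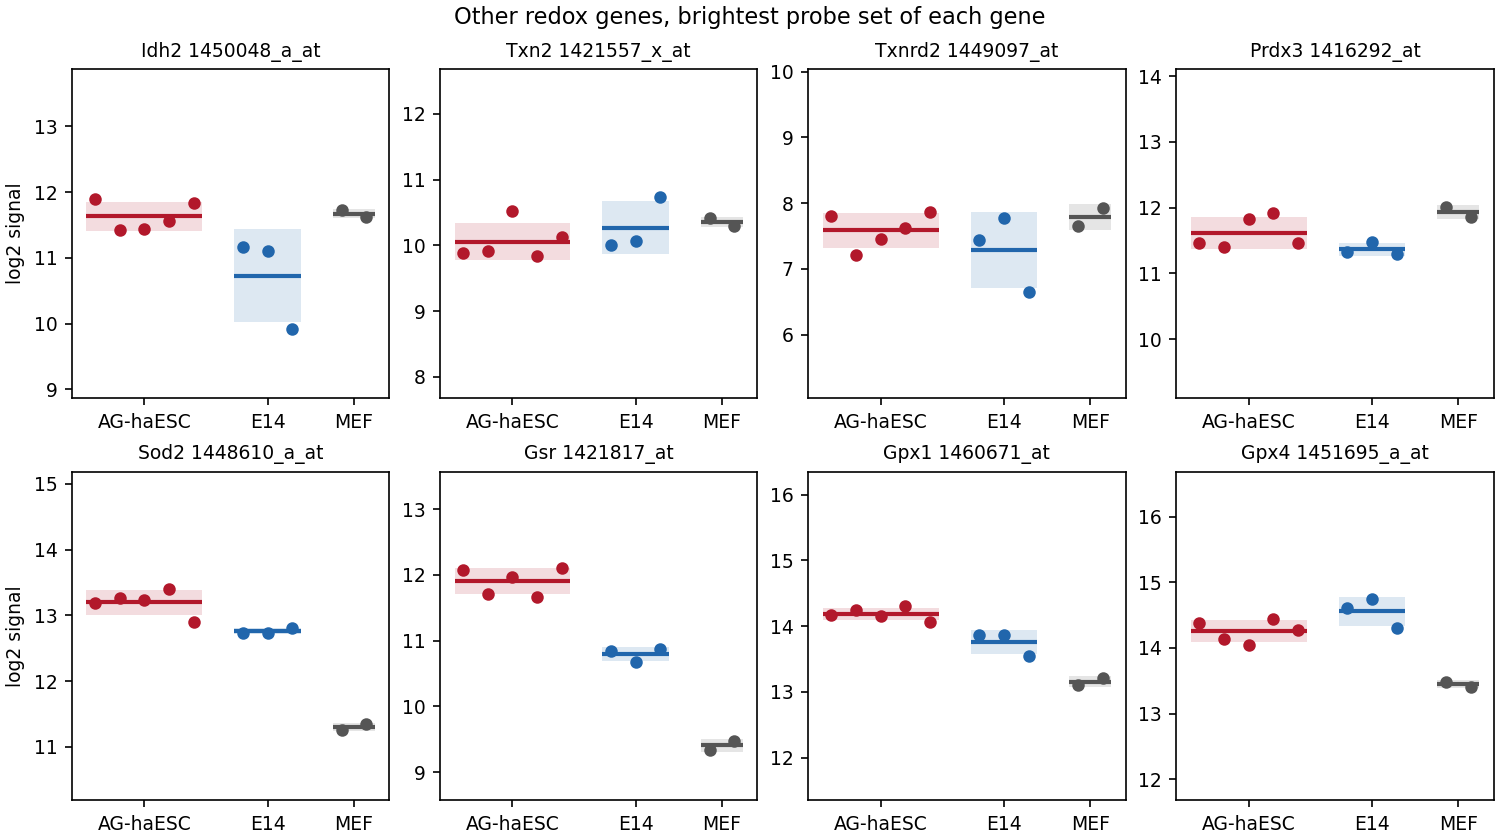
Log2 signal (y axis, each panel with its own range of equal height) of the brightest probe set of the 8 other genes on each array, by group (x axis). Points are arrays in replicate order, and lines and bands are the group mean and SD. Sod2, Gsr and Gpx1 step down across AG-haESC, E14 and MEF, Gpx4 is highest in E14, E14 replicate 3 lies low for Idh2, and Txn2, Txnrd2 and Prdx3 show no step of 2-fold.

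The mitochondrial thioredoxin chain was not called in any comparison by limma. It consists of Txnrd2, the selenium-containing reductase that takes electrons from NADPH, Txn2, the thioredoxin it recharges, and Prdx3, the peroxiredoxin that reduces hydrogen peroxide with them. Prdx3 (1416292_at) read 11.46, 11.40, 11.83, 11.92 and 11.46 in AG-haESC, 11.33, 11.48 and 11.29 in E14, and 12.01 and 11.86 in MEF. It was lowest in E14, where all arrays lay below both MEF arrays, a difference of -0.57 ± 0.18 for E14 minus MEF (adjusted p = 0.0191) that is under 2-fold. AG-haESC minus E14 was 0.24 ± 0.14 (95% interval -0.067 to 0.55, adjusted p = 0.299) and AG-haESC minus MEF was -0.32 ± 0.16 (-0.68 to 0.031, adjusted p = 0.114).

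The 3 Txn2 probe sets had means between 9.84 and 10.36 in all groups. On the brightest, 1421557_x_at, AG-haESC averaged 10.05 ± 0.28, E14 10.27 ± 0.40 and MEF 10.36 ± 0.077 (SD, n = 5, 3 and 2). AG-haESC minus E14 ranged from -0.35 to -0.15 over the 3 probe sets (adjusted p between 0.183 and 0.672), and its widest 95% interval was -0.66 to 0.24. E14 replicate 3 was the highest E14 array on all 3 (10.73, 10.67 and 10.55), and without it the difference on 1421557_x_at was 0.02.

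Txnrd2 was read by 4 probe sets with means between 5.72 and 7.79, where the log2 array medians lay between 5.81 and 6.09. The dimmest, 1429971_at, was near those medians, and the other 3 lay above them. On 1449097_at AG-haESC averaged 7.59 ± 0.26, E14 7.29 ± 0.57 and MEF 7.79 ± 0.19 (SD, n = 5, 3 and 2). AG-haESC minus E14 was 0.30 ± 0.27 (95% interval -0.29 to 0.90, adjusted p = 0.522) there, and it was 0.17, -0.16 and 0.77 on 1451936_a_at, 1429972_s_at and 1429971_at (adjusted p = 0.722, 0.793 and 0.186). The 95% intervals reach 1.86-fold on 1449097_at and 2.93-fold on 1429971_at, so the data do not show that Txnrd2 is equal in the groups.

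**Figure D3:**
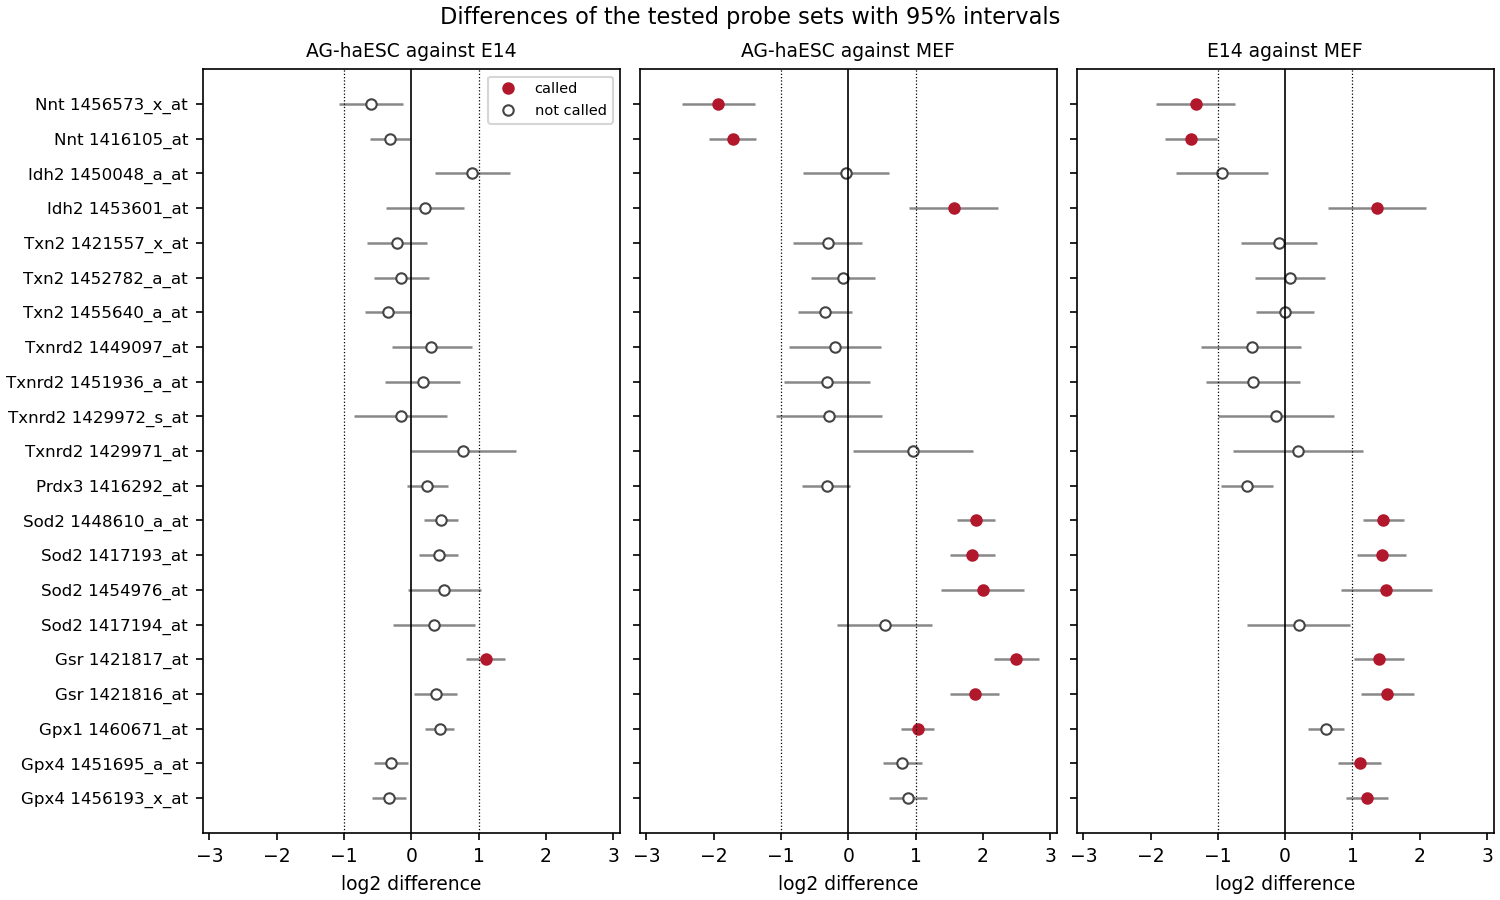
Log2 differences (x axis) of the 21 tested probe sets (rows) in the 3 comparisons, with 95% intervals of the limma fit. Filled red points are calls, open points are not, and dotted lines mark 2-fold. The Nnt rows lie left of 0 in all panels, and the only filled point for AG-haESC against E14 is Gsr 1421817_at.

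The median SD of the tested probe sets of the 9 genes was 0.24 in AG-haESC, 0.22 in E14 and 0.11 in MEF. Over all probe sets that passed the filter it was 0.34, 0.36 and 0.15. Signal level was not matched in this comparison. The median difference of the 21 probe sets was 0.24 for AG-haESC minus E14, 0.54 for AG-haESC minus MEF and 0.19 for E14 minus MEF, against -0.069, 0.079 and 0.13 over all tested. For 7 of the 21 the AG-haESC and E14 arrays did not overlap, against 20.2% of all tested. Against MEF the arrays did not overlap for 14 in AG-haESC and for 14 in E14, against 65.0% and 69.9%.

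Promoters are shown for Sod2 and Gpx1, which both stood higher in AG-haESC than in MEF, and for Txnrd2, which was called in no comparison. RefSeq promoters (GRCm38.p6) were found for 7 of the 9 genes, and not for Nnt and Gsr. Each run covers the 150 bases before the start site on the plus strand, chr17:13007689-13007838 for Sod2, chr9:108338930-108339079 for Gpx1 and chr16:18426267-18426416 for Txnrd2. Capitals mark GC boxes, the letters GGGCGG searched on both strands, which the factor Sp1 is known to bind.
Sod2: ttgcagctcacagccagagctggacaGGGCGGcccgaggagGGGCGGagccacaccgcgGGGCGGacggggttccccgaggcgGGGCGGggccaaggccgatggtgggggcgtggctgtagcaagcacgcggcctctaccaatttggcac
Gpx1: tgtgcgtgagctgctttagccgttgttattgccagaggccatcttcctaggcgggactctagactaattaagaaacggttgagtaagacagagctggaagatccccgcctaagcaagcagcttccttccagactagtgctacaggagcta
Txnrd2: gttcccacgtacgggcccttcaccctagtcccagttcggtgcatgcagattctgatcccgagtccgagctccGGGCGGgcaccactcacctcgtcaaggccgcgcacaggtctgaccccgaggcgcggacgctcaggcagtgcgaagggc

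The Sod2 window held 4 GC boxes, whose first bases lie 124, 109, 91 and 67 bases before the start, the Txnrd2 window held 1 at 78 bases, and the Gpx1 window held 0. A GC box was found in 28.6% of 32851 mouse promoter windows of this length, and 4 or more in 2.32%. The core of the antioxidant response element, TGACNNNGC on both strands, which NRF2 is known to bind, was in 6.80% of these windows and in none of those of the 7 genes. A match is a description of letters, and no match says only that these letters are absent from this window.

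The pathways around these genes were read from lists with the brightest probe set of each gene. At this level 4.38% of 13251 genes were called higher and 3.61% lower in AG-haESC than in E14, 19.6% and 22.5% in AG-haESC against MEF, and 20.8% and 21.1% in E14 against MEF. Median differences over all genes were -0.082, 0.0045 and 0.08.

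The list around the NADPH supply of mitochondria held 10 genes, Nnt and Idh2 included, and not all of them make NADPH themselves. Of these, 1 was higher and 0 were lower in AG-haESC than in E14, with a median difference of -0.20. By limma 4 of the 10 had an unadjusted p below 0.05. The called gene was Mthfd2l, a mitochondrial enzyme of folate metabolism. It read 9.08, 8.77, 8.95, 8.44 and 8.84 in AG-haESC, 7.20, 7.53 and 7.82 in E14, and 10.03 and 10.23 in MEF. The groups did not overlap, and AG-haESC minus E14 was 1.30 ± 0.20 (adjusted p = 0.00164). Against MEF, 2 of the 10 were higher and 5 lower in AG-haESC (median -0.67), and 2 were higher and 3 lower in E14 (median -0.80).

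The widest contrast of that list was Aldh1l2, a mitochondrial dehydrogenase that makes NADPH from formyl-folate. It read 6.39 to 6.90 in AG-haESC, 6.04 to 6.68 in E14, and 12.83 and 12.32 in MEF, with AG-haESC minus MEF at -6.05 ± 0.26 (adjusted p = 1.52e-08). Nnt came next in size. Of 9 cytosolic NADPH genes, 0 were higher and 1 was lower in AG-haESC than in E14, with 2 at an unadjusted limma p below 0.05. The lower gene was Pgls of the pentose phosphate pathway, which averaged 10.10 ± 0.37 in AG-haESC, 11.61 ± 0.28 in E14 and 12.01 ± 0.077 in MEF (SD), with AG-haESC minus E14 at -1.51 ± 0.21 (adjusted p = 0.000893). Against MEF, Mthfd1, the cytosolic folate enzyme, was higher in AG-haESC by 2.68 ± 0.13 (adjusted p = 3.55e-08) and Pgls was lower, with a difference of -1.90 ± 0.24 (adjusted p = 4.14e-05).

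The glutathione list held most of the differences between the stem cell groups, with 5 of 24 genes higher and 3 lower in AG-haESC than in E14 (median 0.20). Gsto1, a glutathione transferase of the omega class, read 13.63, 13.74, 13.29, 12.36 and 13.70 in AG-haESC, 9.47, 9.43 and 11.01 in E14, and 13.32 and 13.46 in MEF. AG-haESC lay at the level of the fibroblasts and well above E14, of which replicate 3 was the highest. The fit gave AG-haESC minus E14 as 3.37 ± 0.38 (adjusted p = 0.000226), and 3.90 without E14 replicate 3. Gstm2, a transferase of the mu class, was higher by 1.54 ± 0.32 (adjusted p = 0.01). Leaving out E14 replicate 1 or E14 replicate 2 ended this call, with a highest adjusted p of 0.0528, and the difference was 2.05 without E14 replicate 3.

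The lower glutathione genes named by size were the membrane-bound transferases Mgst1 and Mgst3. Mgst1 averaged 7.21 ± 0.30 in AG-haESC, 8.89 ± 0.36 in E14 and 11.56 ± 0.25 in MEF (SD), and AG-haESC minus E14 was -1.68 ± 0.23 (adjusted p = 0.000807). Mgst3 differed by -1.60 ± 0.19 between AG-haESC and E14 (adjusted p = 0.000386). The remaining higher calls were Gss, Gpx8 and Ggct, and the remaining lower call was Glo1. The Gpx8 call was lost in 6 of 19 alternatives, among them without E14 replicate 3 (0.82, adjusted p = 0.0538), the Ggct call in 4 and the Gss call in 1, the replicate block. These 4 were picked out after their values were seen. Gss, glutathione synthetase, carries out the last step of glutathione synthesis, and it differed by 1.30 ± 0.21 (adjusted p = 0.00193). The count of higher genes was 3 without AG-haESC replicate 3 or without E14 replicate 2, and 4 without E14 replicate 3, where the count of lower genes was 4.

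Against MEF the glutathione list split, with 6 of 24 higher and 8 lower in AG-haESC (median -0.082) and 6 higher and 8 lower in E14 (median -0.11). Mgst1 was lower in AG-haESC than in MEF by -4.35 ± 0.26 (adjusted p = 1.46e-07). Gsta4, which conjugates the lipid peroxidation product hydroxynonenal, averaged 14.05 ± 0.11 in AG-haESC and 9.94 ± 0.37 in MEF (SD), a difference of 4.11 ± 0.14 (adjusted p = 2.82e-09). The 10 fibroblast markers summed to at most 7553 in AG-haESC, against at least 115677 in MEF. Of these 10, 6 were called higher in AG-haESC than in E14. Gsto1 averaged 13.35 ± 0.58 in AG-haESC and 13.39 ± 0.10 in MEF (SD). The part of feeder cells in the differences between AG-haESC and E14, those of Gsto1 and Mthfd2l included, was not tested.

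Of 18 genes of the NRF2 response, the transcription programme that answers oxidants, 1 was higher and 1 lower in AG-haESC than in E14 (median 0.23). Nqo1, a quinone reductase and standard target, read 11.07, 10.23, 10.55, 10.54 and 11.05 in AG-haESC, 7.88, 8.28 and 8.70 in E14, and 7.42 and 7.51 in MEF. AG-haESC stood far above both other groups, with AG-haESC minus E14 at 2.40 ± 0.24 (adjusted p = 9e-05) and AG-haESC minus MEF at 3.23 ± 0.27 (adjusted p = 1.92e-06). Abcc1, an export pump for glutathione conjugates, was lower with a difference of -1.25 ± 0.31 (adjusted p = 0.0234), which did not hold when E14 replicate 1 or E14 replicate 2 was left out. Against MEF 6 were higher and 4 lower in AG-haESC. Besides Nqo1, Slc7a11, the cystine carrier, was at least 3.17-fold lower in AG-haESC than in MEF (adjusted p = 0.000374), with AG-haESC below the array medians. Gclc, Gclm and Slc7a11 stand in both the NRF2 and the glutathione list.

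The thioredoxin genes outside the 9 were called in 0 of 18 cases between AG-haESC and E14 (median 0.14), with 5 at an unadjusted limma p below 0.05. Other superoxide and peroxide enzymes were called in 0 of 7, with 1 at an unadjusted limma p below 0.05 (median -0.15). Against MEF the thioredoxin list had 3 higher genes and 1 lower gene in AG-haESC. Msrb3, a methionine sulfoxide reductase, differed by -4.88 ± 0.29 (adjusted p = 1.36e-07), and Glrx3, a glutaredoxin, was at least 3.07-fold higher (adjusted p = 0.000614). The superoxide and peroxide list had 2 higher and 2 lower genes in AG-haESC against MEF, with a median of 0.21. The largest differences were those of the 2 lower genes, the paraoxonases Pon2 and Pon3, at -3.48 ± 0.62 and -2.42 ± 0.35 (adjusted p = 0.000601 and 0.000133).

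Mitochondrial genes outside redox defence gave a yardstick. The 24 measured genes were of the citric acid cycle, import, respiratory chain and outer membrane, among others, and included the regulators Nrf1 and Tfam. Of these 24, 0 were called between AG-haESC and E14 (median -0.031), with 5 at an unadjusted limma p below 0.05. Against MEF 4 were higher and 0 lower in AG-haESC (median 0.45), among them Nrf1, a regulator of nuclear genes for mitochondria, by 2.49 ± 0.17 (adjusted p = 3.3e-07) and Tfam, which packs mitochondrial DNA, by 1.27 ± 0.13 (adjusted p = 7.56e-06). In E14 against MEF the counts were again 4 and 0 (median 0.52). The lower Nnt signal in stem cells than in MEF ran opposite to the median of this list.

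**Figure D4:**
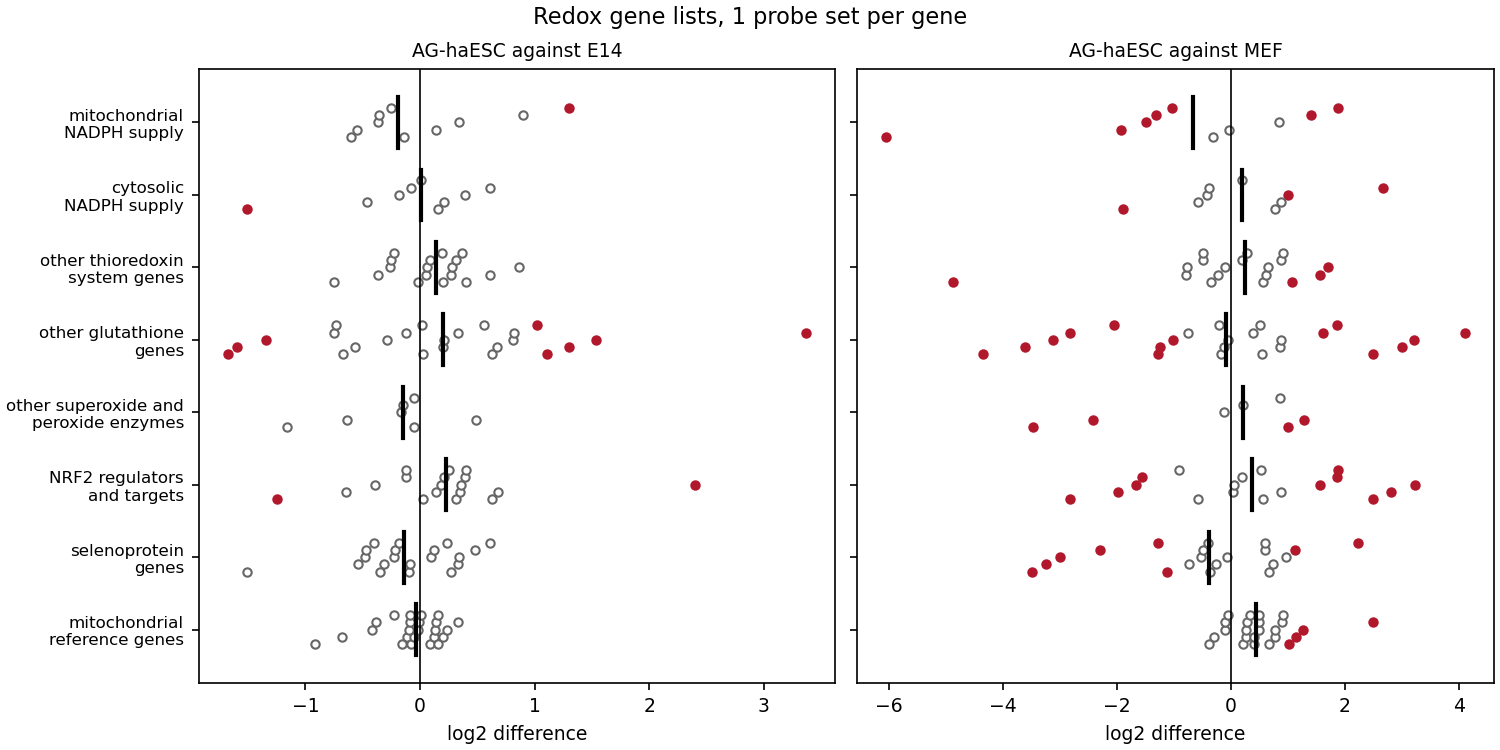
Log2 differences (x axis) of the genes of 8 lists (rows), 1 probe set per gene, for AG-haESC against E14 (left) and AG-haESC against MEF (right). Filled red points are calls, open points are not, and black bars are list medians. Calls between the stem cell groups are most numerous in the glutathione list, and the mitochondrial reference genes have none on the left and only higher ones on the right.

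The genes whose pattern over the 10 arrays was most like that of Nnt 1456573_x_at were Dync1i2 (Pearson's r = 0.992), Casd1 (0.988), Dpp8 (0.987), Moxd1 (0.985) and Creb3l1 (0.984), out of 13250 genes compared. Over the 8 stem cell arrays alone their r was 0.97, 0.97, 0.96, 0.94 and 0.96. The coefficients depend on the group means and also on single arrays. AG-haESC replicate 4 read low on 1456573_x_at (8.75) and did not stand out on 1416105_at (9.43). The coefficients are a description with no test. The other Nnt probe set, 1416105_at, had r = 0.95. Among the other 8 genes, Sod2, Gpx1, Gsr and Gpx4 had negative r (-0.96, -0.93, -0.88 and -0.70), and Txn2, Prdx3, Txnrd2 and Idh2 had r between 0.05 and 0.43. Counted from the highest r, the 4 negative ones ranked 13228, 13104, 12702 and 10471 of 13250, so many genes were more negative than Gpx4. Gpx4 had its highest mean in E14 and did not follow the reverse order of Nnt.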

How the data were processed

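The authors deposited signal intensities on a linear scale, 1 per probe set and array, computed with MAS5, per the submitters' processing notes. Every array had a 2% trimmed mean of 500, so values are relative within an array. No label gives a software version, and detection calls were not used here. Of 45101 probe sets, 64 were controls, 34945 had 1 gene symbol, 932 several and 9160 none in the platform annotation.

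Signals were taken to log2, and a probe set was kept where 2 or more arrays had it above their median (27505, for 13251 genes). All 10 arrays (5 AG-haESC, 3 E14, 2 MEF) entered 1 limma fit (limma 3.58.1, R 4.3.3) of 3 group means with a trended prior variance and 7 residual degrees of freedom. Two-sided p-values were adjusted by Benjamini-Hochberg over all kept probe sets of a comparison. Folds against a group that was below the median on all its arrays are given as "at least", computed with those medians in its place. Such a probe set passed the filter only through arrays of the other groups. Precision is limited by the number of arrays. The labels do not say that replicates of E14 or MEF came from separate cultures or embryos, so p-values measure the spread between these samples.

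The 9 genes and all lists were chosen with earlier results of these data known. All probe sets of the 9 genes are accounted for. Of each list, at most 4 called genes with the largest difference are named for AG-haESC against E14 and at most 2 for AG-haESC against MEF, with the exceptions stated. Alternatives were a pseudocount of 32, a floor at the array median, no filter, quantile normalization, 1 probe set per gene, the mean of probe sets, no variance trend, array weights, only the groups compared, each array left out, and a replicate block. The fit was tested on simulated data.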

Additional observations from a re-analysis of the deposited data

Results flagged for a closer look

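On Nnt probe set 1456573_x_at, AG-haESC replicate 4 read 8.75 while the other 4 lines read 9.57 to 9.74. The gap to the nearest line was 0.827 of the whole range of the group, above Dixon's 95% critical value for 5 samples. Of 22 probe sets looked at this way in AG-haESC, 1 met the criterion, and chance alone gives about 1 in 20. On Nnt probe set 1416105_at the same line read 9.43, against 9.44 to 9.78 in the others.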

How the results depend on the processing

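Nnt kept its direction and its side of the call (adjusted p together with 2-fold) in every comparison and alternative that was run, and so did Gsr between each stem cell group and MEF. The counts of called probe sets of the 9 genes moved where fewer or averaged probe sets were tested. With the mean of a gene's probe sets the count for AG-haESC against E14 was 0 of 9 genes by limma (6 at an unadjusted p below 0.05), and it ranged from 1 to 2 with each array left out, Idh2 1450048_a_at being added without E14 replicate 1 or E14 replicate 2. With 1 probe set per gene and with the mean it was 4 and 4 for AG-haESC against MEF, and 4 and 4 for E14 against MEF. Over everything tested, AG-haESC against E14 gave 1997 calls, 1102 with 1 probe set per gene, 1106 with the mean, 3321 with array weights, and 1516 to 2593 with each array left out. AG-haESC against MEF gave 10769 calls, 5596 with 1 probe set per gene and 5550 with the mean, and E14 against MEF gave 10688, 5581 and 5524. The counts with 1 value per gene are out of fewer features, 13251 against 27505 over everything tested. With the mean, the call lost for AG-haESC against E14 was that of Gsr, at 0.74. The cause of the changes in the counts was not tested.

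The differences that changed sign were all uncalled. For AG-haESC minus E14 they were, with the replicate number as a block, Idh2 1453601_at (-0.00031), Txn2 1421557_x_at (0.011) and 1452782_a_at (0.10), and Txnrd2 1451936_a_at (-0.035) and 1429972_s_at (0.22). With array weights they were Txn2 1421557_x_at (0.0033) and 1452782_a_at (0.029), and Txnrd2 1451936_a_at (-0.012) and 1429972_s_at (0.034). With each array left out the ranges were -0.35 to 0.02 and -0.31 to 0.13 for those Txn2 probe sets, and -0.016 to 0.54, -0.046 to 0.31 and -0.39 to 0.14 for Txnrd2 1449097_at, 1451936_a_at and 1429972_s_at. For AG-haESC minus MEF, Idh2 1450048_a_at was -0.11 to 0.012 with each array left out, and the mean of the Idh2 probe sets was 0.77. Txn2 1452782_a_at was 0.037 and Txnrd2 1449097_at 0.031 after quantile normalization, and the mean of the Txnrd2 probe sets was 0.039. Txnrd2 1429972_s_at was 0.15 with the block and -0.65 to 0.062 with each array left out. For E14 minus MEF, the mean of the Idh2 probe sets was 0.21. Txn2 1452782_a_at was -0.13 with array weights and -0.20 with the block, and Txnrd2 1429971_at was -0.039 with the block. Txn2 1455640_a_at was 0.085 and Txnrd2 1429972_s_at 0.009 after quantile normalization. Leaving out each array gave -0.32 to 0.042, -0.20 to 0.24 and -0.18 to 0.11 for Txn2 1421557_x_at, 1452782_a_at and 1455640_a_at, and -0.49 to 0.22 and -0.048 to 0.66 for Txnrd2 1429972_s_at and 1429971_at. The cause was not tested.

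Replicate numbers are shared by the labels of E14 and MEF. Same-numbered arrays did not deviate together (r = -0.0225 over 27505 probe sets). Only replicates 1 and 2 enter this value, so it cannot exclude that the numbers pair the samples. In the replicate block E14 replicate 3 had a term of its own, since no MEF array shares its number, so it did not enter the E14 level. AG-haESC arrays had no block term and were set against E14 and MEF at the level fitted for replicate 1. The block results with AG-haESC are therefore no check of a pairing. With this block the 9 genes had 1, 9 and 10 called probe sets in the 3 comparisons, and all tested had 1716, 10276 and 10382. The Nnt differences between AG-haESC and E14 were then -0.54 and -0.33 (limma adjusted p = 0.299 and 0.285). Txnrd2 1429971_at, near the array medians, had the widest interval of the 21 probe sets between AG-haESC and E14.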

Other observations

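The chromosomal neighbourhood of Nnt on mouse chromosome 13 was read from the 5 protein-coding genes on each side of it, of which 9 were measured. In AG-haESC against E14 1 was higher and 0 were lower (median -0.016), with 2 at an unadjusted limma p below 0.05. The higher gene was Tmem267, a transmembrane protein gene, which read 8.43, 8.16, 8.64, 6.70 and 9.77 in AG-haESC, 4.58, 4.62 and 5.12 in E14, and 8.92 and 8.61 in MEF. E14 lay below the array medians on all 3 arrays, and the signal was at least 4.93-fold higher in AG-haESC than in E14 (adjusted p = 0.00117) and at least 6.63-fold lower in E14 than in MEF (adjusted p = 0.000331). Against MEF, Parp8, of the poly(ADP-ribose) polymerase family, was at least 11.3-fold lower in AG-haESC (adjusted p = 0.000199).

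Of 20 selenoprotein genes and factors for selenium incorporation other than Txnrd2, Gpx1 and Gpx4, 0 were called between AG-haESC and E14 (median -0.14), with 8 at an unadjusted limma p below 0.05. Against MEF 2 were higher and 6 lower in AG-haESC (median -0.39). Selenom, a selenoprotein of the endoplasmic reticulum, averaged 8.45 ± 0.19 in AG-haESC, 8.68 ± 0.14 in E14 and 11.94 ± 0.033 in MEF (SD, n = 5, 3 and 2), with AG-haESC minus MEF at -3.49 ± 0.18 (adjusted p = 5.27e-08). Selenon, also of the endoplasmic reticulum, differed by -3.24 ± 0.45 (adjusted p = 8.86e-05).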
